A study of Homo sapiens with 12 samples.

Results

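Messenger RNA levels of 9 genes for the first enzymes and adaptors of T cell receptor signalling were followed in 12 RNA sequencing libraries of Jurkat, a human leukaemic T cell line. The genes were the kinases LCK, FYN and ZAP70, the adaptors LAT, LCP2 and GRAP2, the phospholipase PLCG1 and the phosphatases PTPRC and PTPN22. They were chosen by symbol, and all 9 of 9 were present in both deposited tables, of 55514 and 44389 genes. The first table held 3 libraries titled Hobit and labelled as carrying doxycycline-induced ZNF683, and 3 Mock libraries. The second held 3 libraries of a Hobit line grown with doxycycline, an antibiotic used to switch on inducible constructs, at a labelled dose of 1 ug/uL (Dox+), and 3 grown without it (Dox-). All 4 groups are Jurkat cells grown in the same serum-containing medium. The labels do not say whether Mock cells received doxycycline, what the construct was or whether a line is 1 clone. Hobit is the protein made from ZNF683, a zinc finger transcription factor related to Blimp-1 and known from tissue-resident lymphocytes. The comparisons ask how levels of these genes differ between cells labelled as having the factor and cells labelled as lacking it.

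When a T cell receptor binds its ligand, LCK, held ready by the phosphatase CD45 (the product of PTPRC), phosphorylates the tails of the CD3 and zeta chains, and ZAP70 docks there. ZAP70 then phosphorylates the adaptors LAT and SLP-76 (the product of LCP2), which the small adaptor GADS (the product of GRAP2) holds together. Phospholipase C gamma 1 (the product of PLCG1) joins this assembly and makes the second messengers that release calcium and open the Ras and NF-kB branches, while the phosphatase made from PTPN22 removes activating phosphates from LCK and ZAP70. Much of what is known of this cascade was worked out in Jurkat cells and their mutants.

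Values are TPM, a length-normalized abundance scaled to a fixed total in each library, which lets levels of different genes be compared within a library. The ZNF683 transcript stood at 1.17, 1.76 and 1.04 TPM in ZNF683 libraries and 0.715, 1.59 and 0.681 TPM in Mock libraries, so these groups overlapped. It had 0.453, 0.774 and 0.571 TPM in Dox+ libraries and 0.115, 0.239 and 0.451 TPM in Dox- libraries. These groups were apart, narrowly at 0.453 against 0.451 TPM, and also after the scaling described below. Such levels are too low for the transcript to check the labels. All 10 T cell markers looked up averaged at least 1 TPM in each group, with CD3D the highest. No myeloid marker did, of 9 in the first table and the 6 of them that the doxycycline table lists. T cell markers summed to between 2698 and 2928 TPM in Dox+ libraries and to 1197, 1050 and 2321 TPM in Dox- libraries, and their part in the results below was not tested. B cell markers summed to between 15.3 and 79.3 TPM, mostly CD79A, and NK cell markers to at most 4.35 TPM. Erythroid markers summed to 35.3 TPM in Dox- library 2, mostly HBA1 (19.5 TPM) and HBA2 (14.8 TPM), and to between 0.695 and 3.62 TPM in the other 11 libraries, and their part in the results was likewise not tested. Dox- libraries 1 and 2 stood apart. A single short noncoding transcript, AL135790.1, took 50.7% of the TPM of Dox- library 1, which lowers every other value in it, and 7 stress genes summed to 4688 TPM in Dox- library 2, against 232 to 314 TPM in Dox+ libraries and 109 and 289 TPM in the other Dox- libraries. Results from the doxycycline table are therefore also given after median-of-ratios scaling, which sets the libraries of a table to the same typical gene ratio, and without those libraries.

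LCK was the most abundant of the 9 transcripts in every library, and the order of the genes was much alike throughout. PTPRC and LAT took the second and the third place in all 12 libraries, PTPRC ahead in 7 of them. PTPRC lay above LAT in all 3 Dox+ libraries and below it in all 3 Mock libraries. ZAP70 followed, ahead of GRAP2 in 6 of 12 libraries, so that these neighbours did not differ in a fixed direction. Below them came LCP2, PLCG1, PTPN22 and FYN, with each neighbouring pair in that order in at least 11 of 12 libraries. Each of the 3 exceptions, LCP2 above GRAP2, PLCG1 above LCP2 and FYN above PTPN22, was Dox- library 2. The ranges of neighbouring genes were apart in all 4 groups for LCK and PTPRC, in 3 of 4 groups for LAT and ZAP70 and for each pair from GRAP2 down, and in 2 of 4 groups for PTPRC and LAT and for ZAP70 and GRAP2. Mean LCK was higher than 99.4% of the genes tested in the ZNF683 and Mock table and 98.6% in the doxycycline table, while mean FYN was higher than 55.3% and 61.4%.

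**Figure D1:**
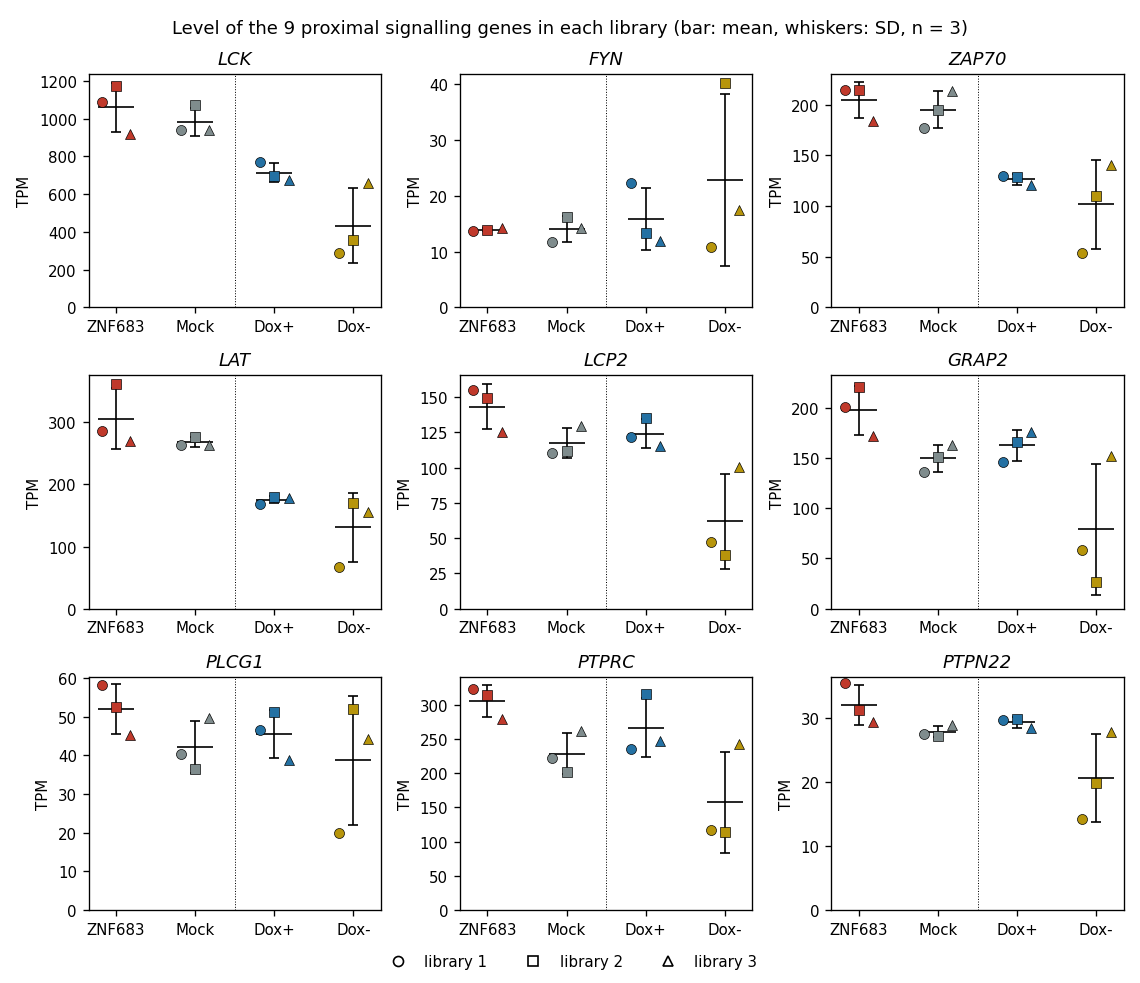
TPM (vertical axes, each from 0) of the 9 genes in each library of the ZNF683, Mock, Dox+ and Dox- groups, with the mean and SD of 3 libraries as bar and whiskers; the dotted line parts the 2 separately deposited tables. ZNF683 libraries lie above Mock libraries for GRAP2, PTPRC and PTPN22, and Dox- libraries 1 and 2 lie low for most genes while FYN peaks at 40.3 TPM in Dox- library 2.

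The sequence around the start of each gene was read from RefSeq (GRCh38.p14), which lists 17 starts for the 9 genes, each as 250 bases before and 50 after the start. Those of LCK, LCP2, GRAP2, PTPRC and FYN are printed, because, as deposited and after scaling, the first 4 had the largest mean of the changes of both comparisons and FYN the one negative mean. Both listed starts of LCK and of GRAP2 are given, and the most upstream of FYN. Gene-level TPM does not tell which start was used. Each is written 5′ to 3′ on the strand of the gene, with capitals for matches on either strand to 6 short motifs. The letters AGGAAG stand for the ETS family of lymphocyte transcription factors. TGTGGT is the core read by RUNX factors, and the E-box CAGCTG is read by E proteins. For the GATA family the letters searched were AGATAA. The SP and KLF families were represented by GGGCGG, and the Blimp-1 family of repressors by the letters GTGAAAG.
LCK upstream start, chr1:32251015-32251314, plus strand: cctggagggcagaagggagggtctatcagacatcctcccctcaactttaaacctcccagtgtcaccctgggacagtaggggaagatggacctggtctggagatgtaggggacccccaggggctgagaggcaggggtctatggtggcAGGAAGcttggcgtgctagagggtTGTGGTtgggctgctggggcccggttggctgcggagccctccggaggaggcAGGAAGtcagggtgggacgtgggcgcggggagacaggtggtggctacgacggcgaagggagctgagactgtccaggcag
LCK downstream start, chr1:32273871-32274170, plus strand: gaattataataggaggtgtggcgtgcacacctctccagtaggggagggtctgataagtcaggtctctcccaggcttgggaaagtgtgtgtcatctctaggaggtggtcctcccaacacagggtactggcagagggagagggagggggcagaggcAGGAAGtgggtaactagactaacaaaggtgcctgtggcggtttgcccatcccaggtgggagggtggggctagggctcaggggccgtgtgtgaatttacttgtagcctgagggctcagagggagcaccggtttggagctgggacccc
LCP2, chr5:170297728-170298027, minus strand: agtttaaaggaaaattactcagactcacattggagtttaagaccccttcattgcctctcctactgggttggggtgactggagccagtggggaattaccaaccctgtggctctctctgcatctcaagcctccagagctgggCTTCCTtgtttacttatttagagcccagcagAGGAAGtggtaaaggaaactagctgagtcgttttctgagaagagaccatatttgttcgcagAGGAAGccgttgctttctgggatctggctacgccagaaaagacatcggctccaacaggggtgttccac
GRAP2 upstream start, chr22:39926354-39926653, plus strand: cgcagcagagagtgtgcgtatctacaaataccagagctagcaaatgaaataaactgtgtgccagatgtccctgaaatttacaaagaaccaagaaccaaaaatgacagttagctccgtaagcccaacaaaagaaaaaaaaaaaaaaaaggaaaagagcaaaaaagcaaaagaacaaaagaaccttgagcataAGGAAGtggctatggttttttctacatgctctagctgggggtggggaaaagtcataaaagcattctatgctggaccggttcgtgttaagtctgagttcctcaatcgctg
GRAP2 downstream start, chr22:39946567-39946866, plus strand: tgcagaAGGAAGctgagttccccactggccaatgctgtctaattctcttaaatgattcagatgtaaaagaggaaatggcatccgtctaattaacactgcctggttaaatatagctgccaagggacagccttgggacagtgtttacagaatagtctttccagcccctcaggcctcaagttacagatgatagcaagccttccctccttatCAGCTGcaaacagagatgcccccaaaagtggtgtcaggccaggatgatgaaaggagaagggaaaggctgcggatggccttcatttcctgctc
PTPRC, chr1:198638790-198639089, plus strand: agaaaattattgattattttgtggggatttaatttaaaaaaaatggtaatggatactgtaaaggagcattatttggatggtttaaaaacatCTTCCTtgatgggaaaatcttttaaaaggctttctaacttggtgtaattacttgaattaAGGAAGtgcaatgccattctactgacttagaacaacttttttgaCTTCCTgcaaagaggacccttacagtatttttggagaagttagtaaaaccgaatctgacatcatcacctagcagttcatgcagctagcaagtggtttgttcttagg
FYN upstream start, chr6:111873403-111873702, minus strand: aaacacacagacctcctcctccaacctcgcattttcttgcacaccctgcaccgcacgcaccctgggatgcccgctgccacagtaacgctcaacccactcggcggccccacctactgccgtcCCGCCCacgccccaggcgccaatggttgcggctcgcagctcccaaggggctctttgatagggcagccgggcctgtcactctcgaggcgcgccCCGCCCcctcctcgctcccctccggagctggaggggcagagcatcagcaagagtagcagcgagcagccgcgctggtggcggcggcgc

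The ETS letters were in 9 of the 17 windows, against 33.6% of 35116 RefSeq start windows of the same length. They were in a window of 7 of 9 genes, all but FYN and PLCG1. That count has no matching share, because several genes have more than 1 window and shares per gene were not computed. They occur once or more in each printed window of LCK, LCP2, GRAP2 and PTPRC, with 3 matches in LCP2 and 3 in PTPRC. RUNX letters were in 4 of 17 windows (13.1% of all windows), E-box letters in 4 (17.9%), GATA letters in 1 (10.3%) and SP and KLF letters in 5 (44.95%). FYN has 2 SP and KLF matches in the printed window, which is 69% G and C, whereas the PTPRC window is 33.7% G and C. Of the FYN windows not printed, 1 has 8 such matches (82.3% G and C) and the others have 0 (38% and 47.3%). The PLCG1 window, also without ETS letters, has 3 such matches and is 81% G and C. Its gene had a positive mean change, 0.31 as deposited. The Blimp-1 letters were in none of the 17 windows, against 3.95% of all windows. A match to such letters is a description of the sequence and not a binding site. The printed windows were picked by the changes of their genes, and a link between matches and changes was not tested.

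LCK, the Src family kinase that starts the cascade (GRCh38 chromosome 1, 32251239 to 32286165, plus strand), had 1086, 1175 and 919 TPM in ZNF683 libraries and 939, 1069 and 937 TPM in Mock libraries. ZNF683 library 3 was the lowest of these 6 and the groups overlapped (log2 change 0.11 ± 0.13 SE, limma adjusted p = 0.716). Dox+ libraries had 769, 695 and 676 TPM and Dox- libraries 287, 355 and 658 TPM. Every Dox+ library was above every Dox- library, with Dox+ library 3 and Dox- library 3 close together. The log2 change was 0.81 ± 0.43 (limma adjusted p = 0.737) as deposited and 0.44 ± 0.18 (limma adjusted p = 0.752) after median-of-ratios scaling, where the groups also stayed apart.

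FYN, the other Src family kinase of T cells (chromosome 6, 111660332 to 111873452, minus strand), had the lowest mean of the 9 in both tables. It had 13.7, 13.8 and 14.3 TPM in ZNF683 libraries and 11.7, 16.3 and 14.3 TPM in Mock libraries, overlapping, with a log2 change of -0.0036 ± 0.13 (limma adjusted p = 0.993) whose sign changed when 1 library was left out. Dox+ libraries had 22.3, 13.4 and 11.98 TPM and Dox- libraries 10.8, 40.3 and 17.5 TPM. The spread was set by Dox- library 2: with it the log2 change was -0.35 ± 0.43 (limma adjusted p = 0.769), and without it 0.15. After scaling, with all libraries, it was -0.69 ± 0.40 (limma adjusted p = 0.752).

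ZAP70, the kinase that docks on the phosphorylated receptor (chromosome 2, 97713560 to 97739862, plus strand), averaged 205 ± 17.7 TPM in ZNF683 libraries and 195 ± 18.2 TPM in Mock libraries (SD, n = 3 each), with overlapping groups and a log2 change of 0.07 ± 0.12 (limma adjusted p = 0.792). Dox+ libraries had 130, 129 and 120 TPM and Dox- libraries 54.0, 110 and 141 TPM, also overlapping. Its doxycycline log2 change was 0.42 ± 0.43 (limma adjusted p = 0.745) as deposited and 0.05 ± 0.13 (limma adjusted p = 0.879) after scaling.

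LAT, the membrane adaptor on which the signalling assembly is built (chromosome 16, 28984826 to 28990783, plus strand), had 286, 361 and 269 TPM in ZNF683 libraries and 264, 277 and 263 TPM in Mock libraries. ZNF683 library 2 stood above the other 5, and the log2 change was 0.18 ± 0.13 (limma adjusted p = 0.533). Dox+ libraries had 169, 180 and 177 TPM and Dox- libraries 67.0, 170 and 155 TPM, overlapping at 170 and 169 TPM. The log2 change was 0.53 ± 0.43 (limma adjusted p = 0.738) as deposited and 0.17 ± 0.17 (limma adjusted p = 0.752) after scaling. Exons of a transcript on the same strand, AC109460.3, overlap 47.7% of LAT exonic sequence. That transcript averaged at most 1.15 TPM in either table, and reads of the 2 cannot be told apart where they overlap.

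LCP2, which encodes the cytosolic adaptor SLP-76 (chromosome 5, 170246237 to 170298227, minus strand), had 155, 150 and 125 TPM in ZNF683 libraries and 111, 112 and 129 TPM in Mock libraries. ZNF683 library 3 was below Mock library 3, so the groups overlapped as deposited (log2 change 0.28 ± 0.12, limma adjusted p = 0.379). They did not overlap after scaling (log2 change 0.25 ± 0.10, limma adjusted p = 0.338). Dox+ libraries had 122, 135 and 115 TPM and Dox- libraries 47.2, 37.7 and 101 TPM. These groups were apart, with a log2 change of 1.12 ± 0.43 (limma adjusted p = 0.541) as deposited and 0.75 ± 0.31 (limma adjusted p = 0.752) after scaling.

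GRAP2, which encodes GADS, the bridge between LAT and SLP-76 (chromosome 22, 39901082 to 39973721, plus strand), had 201, 221 and 172 TPM in ZNF683 libraries and 136, 151 and 163 TPM in Mock libraries. Every ZNF683 library was above every Mock library, with a log2 change of 0.40 ± 0.13 (limma unadjusted p = 0.0136, adjusted p = 0.322). Dox+ libraries had 146, 166 and 176 TPM and Dox- libraries 58.7, 26.5 and 152 TPM. Here Dox- library 3 was above Dox+ library 1, and the log2 change of 1.37 ± 0.43 (limma adjusted p = 0.199) was 0.77 without Dox- library 2. After scaling it was 1.00 ± 0.54 (limma adjusted p = 0.752), with Dox- library 2, at 26.7 scaled TPM, far from Dox- libraries 1 and 3, at 102 and 128 scaled TPM.

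PLCG1, the enzyme that cleaves membrane phosphoinositides (chromosome 20, 41136960 to 41196801, plus strand), averaged 52.0 ± 6.48 TPM in ZNF683 libraries and 42.2 ± 6.68 TPM in Mock libraries, and the groups overlapped (log2 change 0.30 ± 0.14, limma adjusted p = 0.412). In Dox+ libraries it averaged 45.5 ± 6.25 TPM and in Dox- libraries 38.7 ± 16.7 TPM. Its doxycycline log2 change was 0.33 ± 0.43 (limma adjusted p = 0.780) as deposited and had the opposite sign after scaling, -0.03 ± 0.20 (limma adjusted p = 0.958).

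PTPRC, which encodes the receptor phosphatase CD45 (chromosome 1, 198638457 to 198757476, plus strand), had 323, 315 and 279 TPM in ZNF683 libraries and 223, 202 and 262 TPM in Mock libraries. The groups were apart, and the log2 change of 0.42 ± 0.13 (limma unadjusted p = 0.0104, adjusted p = 0.304) was close to that of GRAP2, which was the larger of the 2 without ZNF683 library 1, ZNF683 library 3 or Mock library 2. Dox+ libraries had 236, 316 and 247 TPM and Dox- libraries 116, 114 and 243 TPM, with Dox- library 3 above Dox+ library 1. The log2 change was 0.84 ± 0.43 (limma adjusted p = 0.737), and 0.47 ± 0.25 (limma adjusted p = 0.752) after scaling, where the groups were apart by a narrow margin, 206 scaled TPM in Dox+ library 1 against 204 scaled TPM in Dox- library 3.

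PTPN22, which encodes a phosphatase that opposes LCK and ZAP70 (chromosome 1, 113813811 to 113871759, minus strand), had 35.4, 31.2 and 29.4 TPM in ZNF683 libraries and 27.5, 27.2 and 28.8 TPM in Mock libraries. The groups did not overlap, but ZNF683 library 3 and Mock library 3 were neighbours (log2 change 0.19 ± 0.11, limma adjusted p = 0.444). Dox+ libraries were close together at 29.7, 29.8 and 28.3 TPM, and Dox- libraries had 14.2, 19.8 and 27.8 TPM. These groups were also apart (log2 change 0.54 ± 0.43, limma adjusted p = 0.738), with a smaller change after scaling, 0.18 ± 0.14 (limma adjusted p = 0.752).

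None of the 9 genes passed an adjusted p of 0.05 in either comparison. Over all genes tested, 0.0301% passed for ZNF683 against Mock and 0.396% for Dox+ against Dox-. After median-of-ratios scaling these shares were 0.0301% and 0%, again with no member. With Dox- library 3 left out, Dox+ libraries are set against Dox- libraries 1 and 2 alone, the libraries that stood apart. In that fit, on TPM as deposited, LCK, LCP2, GRAP2 and PTPRC passed (limma adjusted p = 0.0342 each). In all, 2788 genes passed there, or 18.4% of those tested. Passing without Dox- library 3 is not given after scaling. At an unadjusted limma p under 0.05, 3 members were higher in ZNF683 libraries (LCP2, GRAP2 and PTPRC) and 2 in Dox+ libraries (LCP2 and GRAP2), against 6.55% and 4.69% of all genes tested. Changes were positive for 8 of 9 members in each comparison, against 54.9% and 79.1% of all genes tested, and after scaling for 8 and 7 members, against 49.9% and 50.1%. ZNF683 libraries lay wholly above Mock libraries for 3 of 9 members, GRAP2, PTPRC and PTPN22, and wholly below for none, against 8.71% of genes tested above and 8.51% below. Dox+ libraries lay wholly above Dox- libraries for 3 of 9, LCK, LCP2 and PTPN22, and wholly below for none, against 7.91% of genes tested above and 0.891% below. With median-of-ratios scaling 4 members were apart in each comparison, LCP2, GRAP2, PTPRC and PTPN22 in the first (9.44% of genes tested above, 10.1% below) and LCK, LCP2, PTPRC and PTPN22 in the second (5.79% above, 5.93% below). The median log2 change of the 9 was 0.19 against 0.03 over all genes in the first comparison, and 0.54 against 0.32 in the second. After scaling these medians were 0.16 against -0.00041, and 0.18 against 0.00088. Of the 10 T cell markers, 3 lay wholly higher in ZNF683 libraries and 7 in Dox+ libraries as deposited. After scaling these counts were 2 and 7, and none lay wholly lower under either scaling. The median log2 changes of the T cell markers were 0.13 and 0.71 as deposited, and 0.098 and 0.35 after scaling. The shift was thus not particular to the 9 genes. In bulk RNA, fewer cells of a type and less RNA per cell cannot be told apart.

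**Figure D2:**
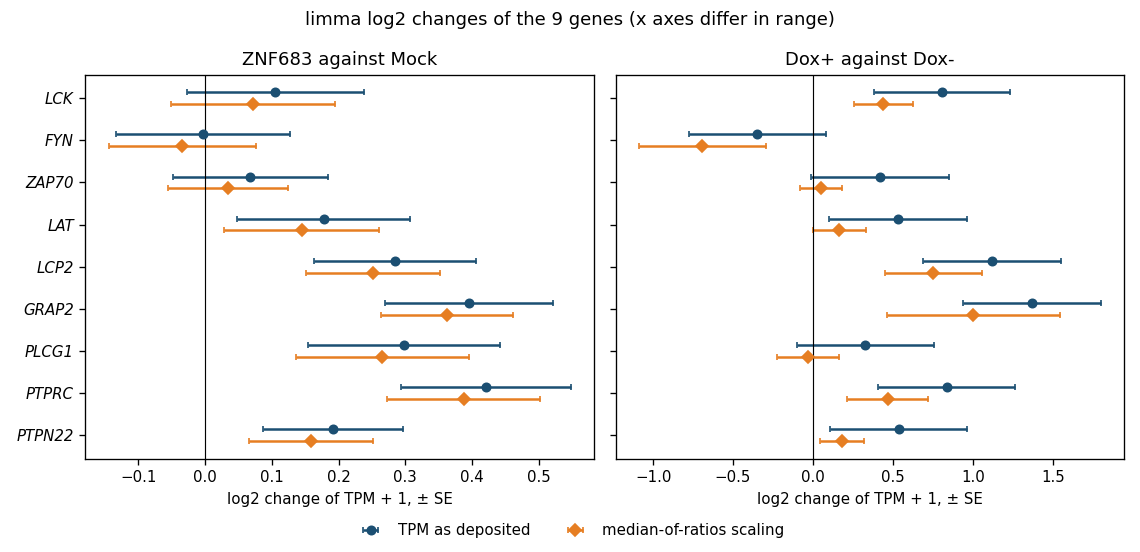
log2 change of TPM + 1 with its SE (horizontal axes, which differ in range) for each of the 9 genes, from TPM as deposited (circles) and after median-of-ratios scaling (diamonds). Scaling moved the first comparison little, and moved every doxycycline change to the left, PLCG1 to -0.03.

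The difference between the comparisons was fitted over all 12 libraries, each change taken within its own table. No member passed (limma adjusted p from 0.876 to 0.990), against 0.0138% of genes tested as deposited and 0.00694% after scaling. For GRAP2 the doxycycline change was larger by 0.97 ± 0.57 on the log2 scale as deposited and by 0.64 ± 0.60 after scaling, and by 0.38 as deposited without Dox- library 2. For PLCG1 the difference was 0.03 ± 0.43 as deposited and -0.30 ± 0.24 after scaling. The mean of the changes was positive for 8 of 9 members, against 75.1% of genes tested, and passed for none, against 0% of genes tested as deposited and 0.00694% after scaling. LCP2 had 0.70 ± 0.21 (limma unadjusted p = 0.00361, adjusted p = 0.392), GRAP2 0.88 ± 0.28 (limma unadjusted p = 0.00562, adjusted p = 0.392) and PTPRC 0.63 ± 0.20 (limma unadjusted p = 0.00605, adjusted p = 0.392). At an unadjusted p under 0.05 the mean picked out 12.4% of all genes tested. FYN was the negative one, at -0.18 ± 0.25 (limma adjusted p = 0.715). Without Dox- library 3, on TPM as deposited, 4 members passed for the difference (LCK, LCP2, GRAP2 and PTPRC) and 5 for the mean (these and PTPN22). In the same fits 17.7% and 34.8% of all genes tested passed.

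Among the 6 libraries of the doxycycline table, taken after median-of-ratios scaling, Dox- library 2 stood furthest from the others for 7 of the 9 genes, all but LAT and ZAP70. After scaling, GRAP2 in that library was 0.211 times its level in the other 5 libraries of the table, and 0.325% of tested genes lay lower by this measure. LCP2 was at 0.395 times, PTPRC at 0.522 times, LCK at 0.613 times and PTPN22 at 0.804 times, with 3.70%, 10.1%, 16.7% and 32.7% of tested genes lower. ZAP70, LAT and PLCG1 were at 1.02, 1.21 and 1.36 times, and FYN at 2.66 times, above 93.5% of tested genes. Members thus lay on both sides within 1 library, from GRAP2, the lowest, to FYN, the highest. The same library held 637 TPM of the stress chaperone gene HSPA6, against 0.351 TPM or less in the rest of the table, and the part of stress genes in these values was not tested. In the first table HSPA6 had 0.515, 0.399 and 0.618 TPM in ZNF683 libraries and 6.85, 5.88 and 4.06 TPM in Mock libraries and passed the threshold (limma adjusted p = 0.0105). In Dox- library 1 members lay, after scaling, between 0.764 times (LAT) and 1.08 times (FYN) the other libraries.

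**Figure D3:**
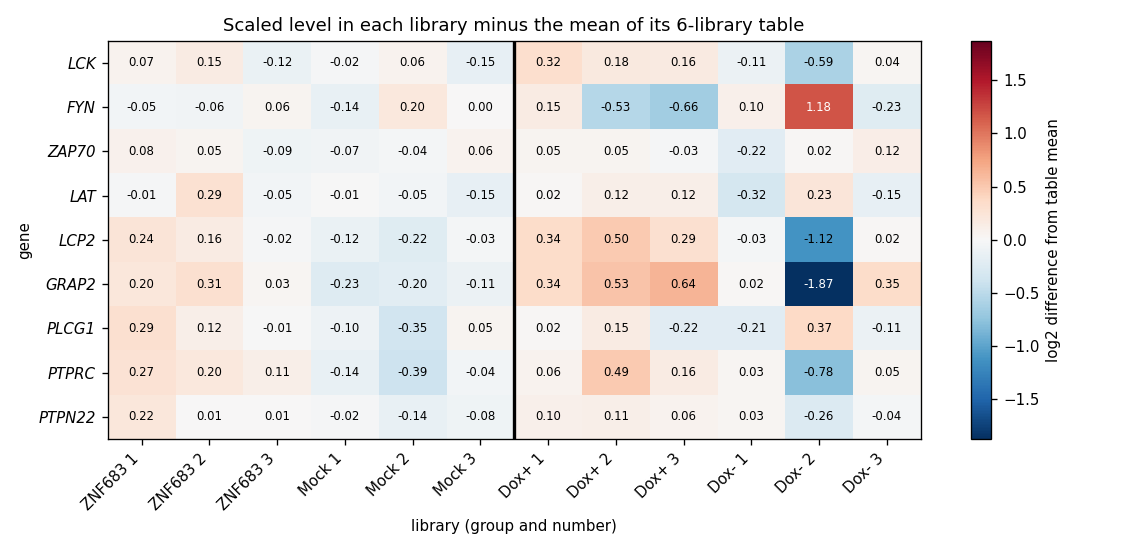
log2 level after median-of-ratios scaling in each library (columns) minus the mean of the 6 libraries of its table, for the 9 genes (rows); red is higher and blue is lower. The strongest entries are in Dox- library 2, at -1.87 for GRAP2, -1.12 for LCP2 and 1.18 for FYN, while ZNF683 and Mock libraries stay between -0.39 and 0.31.

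Leaving out a library can add genes whose groups are apart but cannot remove any. Without Dox- library 2, LAT joined LCK, LCP2 and PTPN22, making 4 members wholly higher in Dox+ libraries, against 13.6% of genes tested. With both Dox- libraries 1 and 2 left out, Dox- library 3 alone lay below every Dox+ library for LCK, LAT, LCP2 and PTPN22, against 14% of genes tested, and above them for 1 member, ZAP70, against 35.2%. The log2 change of LCP2 without library 2 was 0.84. Changes were much smaller against Dox- library 3 alone, with both Dox- libraries 1 and 2 left out. LCK then had 0.11 (0.81 with all libraries), LCP2 0.30 (1.12) and GRAP2 0.091 (1.37). Likewise PTPRC had 0.12 (0.84 with all libraries) and PTPN22 0.071 (0.54), while ZAP70 had -0.16 (0.42). Without ZNF683 library 3, 8 of 9 members were apart, all but FYN, and so were 25.2% of genes tested in that direction.

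Shares of the summed TPM of the 9 genes do not depend on how a library was scaled. LCK made up 45.7 ± 0.631% of the sum in ZNF683 libraries and 48.5 ± 2.89% in Mock libraries, and 43.0 ± 2.80% in Dox+ libraries and 41.2 ± 2.47% in Dox- libraries (SD, n = 3 each). GRAP2 held 8.47, 8.71 and 8.45% in ZNF683 libraries and 7.05, 7.22 and 7.90% in Mock libraries, so these groups were apart. Its share was 8.75, 9.65 and 11.1% in Dox+ libraries and 8.69, 2.87 and 9.88% in Dox- libraries, which overlapped. FYN held at most 1.59% in 11 libraries and 4.36% in Dox- library 2. LAT likewise took 18.4% there, against 9.92 to 14.3% elsewhere.

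**Figure D4:**
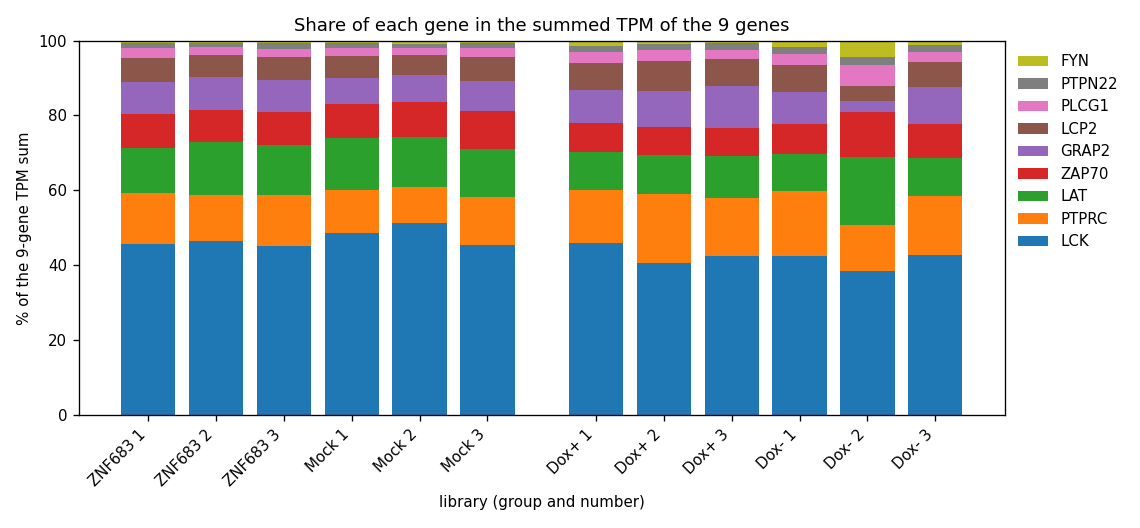
Share of each of the 9 genes in their summed TPM (vertical axis, per cent) in each library. LCK makes up between 38.4 and 51.3% in every library, and Dox- library 2 has the thinnest GRAP2 segment (2.87%) and the thickest FYN segment (4.36%).

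Ratios within a library were compared between groups for 7 gene pairs in each table, 14 comparisons in all, by two-sided exact permutation tests whose smallest possible p with 3 libraries against 3 is 0.1. GRAP2 over GRB2, which encodes the ubiquitous adaptor of the same family, was 1.15, 1.25 and 1.26 in ZNF683 libraries and 1.09, 1.13 and 0.994 in Mock libraries. It was 1.47, 1.43 and 1.49 in Dox+ libraries and 1.03, 0.278 and 1.25 in Dox- libraries. The groups were apart in both tables (exact permutation p = 0.1 each, 0.35 after adjustment over the 14). PTPRC over CSK, the kinase that opposes CD45 at the tail of LCK, was 8.96, 8.43 and 7.70 in ZNF683 libraries and 6.50, 4.61 and 7.03 in Mock libraries (exact permutation p = 0.1), but overlapped between Dox+ and Dox- libraries (exact permutation p = 0.7). PTPN22 over CSK was apart only between ZNF683 and Mock libraries among these 2 comparisons (exact permutation p = 0.1 and, for doxycycline, 0.5). FYN over LCK was between 0.0118 and 0.0155 in ZNF683 libraries and between 0.0125 and 0.0153 in Mock libraries. It was 0.0290, 0.0192 and 0.0177 in Dox+ libraries and 0.0375, 0.114 and 0.0265 in Dox- libraries, overlapping (exact permutation p = 0.2). SYK over ZAP70, PLCG2 over PLCG1 and PTPRC over LCK gave exact permutation p from 0.2 to 1.

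Close relatives of the 9 genes were looked up for scale. SYK, the ZAP70 relative best known from B cells, had 29.9 to 36.9 TPM in ZNF683 libraries and 27.7 to 32.8 TPM in Mock libraries, so the ratio of SYK to ZAP70 was between 0.153 and 0.172 there. Among Src family genes other than LCK and FYN, BLK, a kinase of B cells and thymocytes, had 22.7, 22.6 and 16.2 TPM in ZNF683 libraries and 15.8, 16.5 and 18.4 TPM in Mock libraries, a level above that of FYN in all 6. In the other table BLK had 9.14, 11.2 and 10.7 TPM in Dox+ libraries and 4.07, 4.69 and 10.1 TPM in Dox- libraries, below FYN in all 6. LYN, a kinase of B and myeloid cells, was at most 0.474 TPM in any library. PLCG2 had 9.10 to 11.7 TPM in ZNF683 libraries and 8.62 to 12.04 TPM in Mock libraries. PTPRA, a receptor phosphatase that also acts on Src kinases, had 15.8, 26.8 and 22.4 TPM in ZNF683 libraries and 12.8, 12.9 and 13.3 TPM in Mock libraries (log2 change 0.66 ± 0.18, limma adjusted p = 0.283). It had 34.2, 39.1 and 39.0 TPM in Dox+ libraries and 15.5, 24.3 and 32.7 TPM in Dox- libraries (log2 change 0.67 ± 0.43, limma adjusted p = 0.737), so its groups were apart in both tables.

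A further 77 genes of the pathway were looked up by role, and none that was tested passed the threshold in either comparison. Of 20 tested adaptor and exchange factor genes 15 were positive for ZNF683 against Mock as deposited and 11 after scaling. For 3 of them, TRAT1, GRAP and the integrin-linked adaptor gene SKAP1, ZNF683 libraries lay wholly above Mock libraries, against 8.71% of all genes tested. In the second comparison 19 were positive as deposited and 11 after scaling. There 1 lay wholly higher and 0 wholly lower as deposited, against 7.91% and 0.891% of all genes tested. After scaling 3 lay wholly higher and 2 wholly lower, against 5.79% and 5.93%. Over all genes tested, the positive shares were 54.9% as deposited and 49.9% after scaling in the first comparison, and 79.1% and 50.1% in the second, and the counts for the other roles stand against the same shares. TRAT1, which encodes a receptor-associated membrane adaptor, had 106, 130 and 99.5 TPM in ZNF683 libraries and 50.6, 61.8 and 83.6 TPM in Mock libraries (log2 change 0.78 ± 0.19, limma adjusted p = 0.277). Dox+ libraries had 79.2, 96.7 and 104 TPM of TRAT1 and Dox- libraries 33.4, 12.7 and 80.3 TPM, which overlapped (log2 change 1.47 ± 0.43, limma adjusted p = 0.115). GRAP, the haematopoietic relative of GRB2, had 50.1, 57.6 and 43.0 TPM in ZNF683 libraries and 38.0, 38.8 and 39.9 TPM in Mock libraries (log2 change 0.35 ± 0.12, limma adjusted p = 0.339). Dox+ libraries had 26.1, 26.5 and 30.0 TPM of GRAP and Dox- libraries 9.49, 5.88 and 27.7 TPM, overlapping.

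Among 6 tested kinase genes 3 were positive in the first comparison and 6 in the second as deposited, or 5 after scaling. For none of the 6 were the groups apart in either comparison, under either scaling. CSK had 36.1, 37.4 and 36.2 TPM in ZNF683 libraries and 34.2, 43.9 and 37.2 TPM in Mock libraries. VAV1, a guanine nucleotide exchange factor bound by SLP-76, had a log2 change of 0.01 ± 0.13 (limma adjusted p = 0.967), which was -0.02 after scaling. Of 17 tested phosphatase, lipid kinase and ubiquitin ligase genes 11 were positive in the first comparison and 9 after scaling, and 14 and 8 in the second. As deposited, 1 lay wholly higher and 1 wholly lower in the first comparison (8.71% and 8.51% of all genes tested). In the second 2 lay wholly higher and 0 wholly lower (7.91% and 0.891%). PTPN6, which encodes the inhibitory phosphatase SHP-1, had 96.1, 101 and 94.4 TPM in ZNF683 libraries and 94.2, 98.1 and 88.0 TPM in Mock libraries. With doxycycline it had 80.9, 81.7 and 78.4 TPM in Dox+ libraries and 30.2, 28.0 and 71.8 TPM in Dox- libraries, which were apart (log2 change 1.01 ± 0.43, limma adjusted p = 0.683).

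In the calcium and NF-kB branch, 10 of 17 tested genes were positive for ZNF683 against Mock, and 14 for Dox+ against Dox-, or 9 after scaling. As deposited, 2 lay wholly higher and 1 wholly lower in the first comparison (8.71% and 8.51% of all genes tested). In the second 2 lay wholly higher and 0 wholly lower (7.91% and 0.891%). ORAI2, a calcium channel subunit gene, had 22.2, 24.8 and 21.4 TPM in ZNF683 libraries and 17.0, 17.4 and 19.4 TPM in Mock libraries, and STIM2, a sensor of stored calcium, had 23.8, 28.5 and 29.8 TPM in ZNF683 libraries and 32.1, 36.5 and 32.3 TPM in Mock libraries. The 2 thus lay apart in opposite directions in this table (limma adjusted p = 0.326 and 0.365). Both overlapped between Dox+ and Dox- libraries. ORAI2 had 13.2 TPM in Dox+ library 2 and 13.6 TPM in Dox- library 3. STIM2 had 48.8 TPM in Dox+ library 3 and 60.5 TPM in Dox- library 3. In the Ras and MAP kinase branch 8 of 12 were positive in the first comparison, or 7 after scaling, and 9 in the second, or 6 after scaling. Against the same shares, 3 of these lay wholly higher and 1 wholly lower in the first comparison as deposited. In the second 3 lay wholly higher and 0 wholly lower. MAP2K1, which encodes the kinase MEK1, had 16.8, 33.7 and 28.0 TPM in ZNF683 libraries and 13.9, 16.1 and 16.4 TPM in Mock libraries, whereas BRAF had 5.60, 6.02 and 6.48 TPM in ZNF683 libraries and 7.83, 8.77 and 7.28 TPM in Mock libraries. Neither passed (limma adjusted p = 0.335 each).

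**Figure D5:**
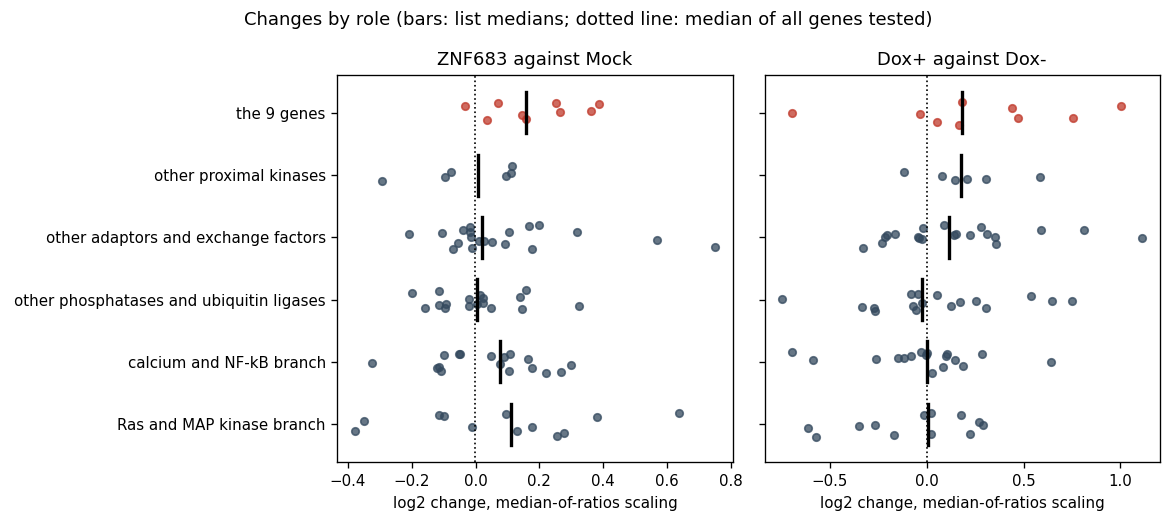
log2 change after median-of-ratios scaling (horizontal axes, which differ in range) of the 9 genes (red) and of further pathway genes by role (dark), each point a gene and each bar a list median; the dotted line is the median of all genes tested. The median of the 9 is 0.16 in the first comparison and 0.18 in the second, and their points span -0.69 (FYN) to 1.00 (GRAP2) in the second.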

How the data were processed

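RNA was extracted with a Qiagen kit and libraries were made with a NEBNext low-input kit, per the labels' protocols. The authors deposited TPM per gene symbol in 2 tables. Kallisto 0.46.0 and DESeq2 1.22.2 are listed among the submitters' processing notes without a stated use. The genome build and transcript set are not given in the sources used here. TPM keeps no read number, so depth is unknown and no counting interval is given. Separate cultures are not stated, and the spread behind each p-value may therefore be technical only.

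Groups came from sample titles. Testing used log2(TPM + 1) in limma 3.58.1 (R 4.3.3, trended empirical Bayes, two-sided) for genes averaging 1 TPM or more, with Benjamini-Hochberg adjustment over all genes and a threshold of 0.05. Changes on that scale understate those of low genes. A change was estimated from 1 table. The difference and the mean of the changes came from 1 model of all 12 libraries with a term for each group, so that each change was still taken within its table, and a single-comparison fit of that model was an alternative. In the doxycycline table as deposited the prior degrees of freedom were unlimited, so a gene's SE was that of genes of its level. The procedure was tested on simulated data. The 9 genes, the gene lists and the tests were chosen with earlier results of these data known. All 9 genes were named. Of each further pathway list, genes past the threshold, or else up to 4 with the smallest p, could be named, as could the genes used in ratios. VAV1, LYN, HSPA6 and AL135790.1 were chosen after their values were seen. Positions are from GENCODE v29 (GRCh38), matched by symbol, and may not match the authors' annotation. Alternatives were other scalings, pseudocounts, filters and variance models, libraries left out, and replicate numbers as a block.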

Additional observations from a re-analysis of the deposited data

How the results depend on the processing

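No member passed the threshold under any setting that kept all libraries. The number of genes passing for ZNF683 against Mock was 5, and became 3 with a pseudocount of 0.1, 8 with robust variance estimation, and 0 with a filter of 5 TPM, with no filter, or with all 12 libraries in 1 model. For Dox+ against Dox- it was 60, and became 0 with median-of-ratios scaling, 0 with AL135790.1 left out, 15 with a filter of 5 TPM, 0 with no filter, 23 with robust variance estimation and 1 with all 12 libraries in 1 model. With both Dox- libraries 1 and 2 left out, a choice made after seeing the data, it was 0. Leaving out 1 library at a time gave 0 to 49 genes in the first comparison and 0 to 2788 in the second. Members passing then numbered 0 to 4 for Dox+ against Dox-, 0 to 4 for the difference of the changes and 0 to 5 for their mean. Each was highest without Dox- library 3, where 18.4%, 17.7% and 34.8% of all genes tested passed. These counts are from TPM as deposited. The cause of these moves was not tested.

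Signs turned for some changes, and not only for the smallest. Among them were the doxycycline changes of FYN (-0.35 in the main fit) and ZAP70 (0.42). For doxycycline, the log2 change of PLCG1 became -0.032 with median-of-ratios scaling and -0.15 with that scaling and Dox- library 1 left out, where ZAP70 became -0.044. ZAP70 was -0.16 with both Dox- libraries 1 and 2 left out. The difference for PLCG1 became -0.30 with median-of-ratios scaling and -0.25 without AL135790.1. With 1 library left out at a time, the ZNF683 change ranged from -0.12 to 0.099 for FYN and from -0.00033 to 0.14 for ZAP70. The doxycycline change ranged from -0.76 to 0.15 for FYN and from -0.082 to 0.59 for PLCG1. The difference ranged from -0.75 to 0.15 for FYN, from -0.046 to 0.64 for ZAP70, from -0.068 to 0.60 for LAT and from -0.38 to 0.29 for PLCG1, and the mean for FYN from -0.38 to 0.072. Among doxycycline ratios, the log2 difference ranged from -0.012 to 0.89 for SYK over ZAP70, from -0.054 to 0.38 for PTPRC over CSK, from -0.12 to 0.17 for PTPRC over LCK and from -0.22 to 0.0040 for PTPN22 over CSK. The causes were not tested.

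Titles use the same replicate numbers in both groups of a table but do not say whether these pair the samples. Deviations of same-numbered libraries had correlations of -0.21, 0.07 and -0.25 in the first table and 0.08, 0.05 and 0.36 in the second. Not every library correlated best with its own number. With 3 libraries per group these values cannot decide whether samples were paired, and the main fits took no account of pairing. With a replicate block, 0 genes passed for ZNF683 against Mock and 34 for Dox+ against Dox-, with no member among them.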

Other observations

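For each of the 9 genes, the gene with the most similar pattern was sought among 9000 named genes averaging 5 TPM or more in both tables, by Pearson correlation of scaled log2(TPM + 1) centred within each table over 12 libraries. These 12 points share libraries and scaling, and Dox- library 2 weighs heavily on them, so each value is a description. GRAP2 was most like SASH3, an adaptor gene of lymphocytes, at 0.995 over 12 libraries and 0.980 without Dox- library 2. LCP2 was most like PSD4 (0.987, and 0.952 without that library), LCK like CDCA8 (0.968 and 0.907), PTPRC like NCSTN (0.972 and 0.936) and ZAP70 like PELP1 (0.964 and 0.971). FYN was most like the noncoding host gene SNHG1 (0.984 and 0.963), LAT like PHKG2 (0.938 and 0.935), PLCG1 like TMEM185A (0.931 and 0.900) and PTPN22 like ZNF550 (0.971 and 0.949). Without Dox- library 2 the closest gene was another one for LAT (BUB3), LCP2 (CPXM1) and PLCG1 (ATG16L1).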
